A study of Mus musculus with 14 samples.

Results

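The small GTPase Ran and the proteins that load, unload and use it were followed in full-grown mouse oocytes whose siRNA pathway was lost or disabled. The set holds 9 genes listed by name, out of 20337 that could be given a symbol: the GTPase *Ran*, its regulators *Rcc1*, *Rangap1*, *Ranbp1* and *Ranbp2*, and the transport receptors and adaptors *Kpnb1*, *Kpna2*, *Kpna7* and *Xpo1*. Where several RefSeq transcripts carried one symbol, the transcript with the highest mean count stood for the gene. The question was whether other members of the cycle moved with *Rangap1*.

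RNA was sequenced from 14 libraries, each made from 20 germinal vesicle-intact oocytes that came, by the study's methods, from 3 or 4 mice. The oocytes came from eCG-primed females of 4 to 6 weeks. The Ago2 fl/fl group (n = 3) carried floxed *Ago2* alleles and served as control for both Ago2 mutants. Ago2 ADH oocytes (n = 3) held, after deletion of a floxed allele, only a knock-in allele whose catalytic DDH motif was changed to ADH, so that the encoded protein cannot cut a target RNA. Ago2 null oocytes (n = 2) had lost both floxed alleles. Cre was driven in the Ago2 mutants by the *Zp3* promoter, which is active in growing oocytes. Dicer KO oocytes (n = 3), in which *Dicer* was deleted in the oocyte, were compared with Dicer WT oocytes (n = 3). The libraries held between 29380403 and 58285057 counts over transcripts. By the lane codes in the names of the deposited files, all libraries of an Ago2 genotype carried a single code that the other Ago2 genotypes did not. The effects of lane and genotype therefore cannot be told apart in the Ago2 series. The 6 Dicer libraries carried 6 codes, and there too no code was shared by the genotypes. The summed level of 10 oocyte markers lay between 10920 and 17560 CPM, that is, counts scaled for library size, in the 14 libraries, and none of the 10 was at 0 in any group. It was lower in Dicer KO (10920 to 11390 CPM) than in Dicer WT libraries (11760 to 11950 CPM), and the Ago2 mutants overlapped their controls. The summed level of 8 granulosa and cumulus markers lay between 27.99 and 63.47 CPM, most of it from *Cyp19a1*, and was lower in the Ago2 ADH (28.64 to 33.08 CPM) and Ago2 null libraries (27.99 to 29.98 CPM) than in Ago2 fl/fl (38.76 to 44.17 CPM). It was 51.79 to 53.97 CPM in the Dicer KO and 55.21 to 63.47 CPM in the Dicer WT libraries, and at most 1 of the 8 was at 0 in any group. The 4 theca, blood and endothelial markers summed to between 32.26 and 44.06 CPM, nearly all of it *Pecam1*, while *Ptprc* and *Hbb-bs* did not exceed 1 count in any library. This sum was lower in Ago2 null (32.26 to 34.23 CPM) than in Ago2 fl/fl (36.98 to 40.51 CPM) and lower in Dicer KO (36.98 to 39.97 CPM) than in Dicer WT libraries (40.38 to 44.06 CPM), and Ago2 ADH overlapped its control. The part of these markers in the results was not tested. The number of oocytes was set at 20 a library. Beside *Cyp19a1* and *Kitl*, no granulosa and cumulus marker exceeded 88 counts in any library. The sums thus rest mainly on *Cyp19a1* and *Pecam1*, and the cell of origin of these transcripts was not tested. For the other cell types in these bulk samples, fewer cells and less RNA per cell cannot be told apart.

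The targeted genes were examined first. *Ago2* fell from 24.7 ± 0.771 CPM (SD, n = 3) in Ago2 fl/fl to 13.1 ± 0.727 CPM (n = 3) in Ago2 ADH and 6.22 ± 1.35 CPM (n = 2) in Ago2 null oocytes, with no overlap among the groups. *Dicer1*, in contrast, was higher in the libraries labelled Dicer KO (1804 ± 130 CPM, n = 3) than in those labelled Dicer WT (757.8 ± 18.2 CPM, n = 3), a 2.39-fold rise (edgeR, adjusted p = 6.1e-12). Neither gene changed only where it was targeted. *Dicer1* also rose 1.595-fold in Ago2 ADH (edgeR adjusted p = 2.1e-10) and 1.51-fold in Ago2 null oocytes (6.4e-08). *Ago2* was lower in Dicer KO than in Dicer WT oocytes (log2 fold change -0.56, edgeR adjusted p = 0.000545). Counts over a whole transcript do not show a deleted exon, so *Dicer1* gives no check of the Dicer labels, and every direction given below for Dicer KO rests on those labels.

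Ran is kept in its GTP form in the nucleus by RCC1, a chromatin-bound exchange factor, and is turned to its GDP form in the cytoplasm by RANGAP1, the GTPase-activating protein, with help from RANBP1 and RANBP2. The resulting gradient directs traffic through nuclear pores: importin beta (*Kpnb1*) and importin alpha adaptors (*Kpna2*, and in oocytes and early embryos *Kpna7*) release cargo on meeting Ran-GTP, while exportin 1 (*Xpo1*) binds cargo together with it. After the nuclear envelope breaks down, Ran-GTP around the chromosomes frees spindle assembly factors from importins, which is one of the routes by which an oocyte builds its meiotic spindle.

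Mouse oocytes make endogenous siRNAs from double-stranded RNA, some of it formed by pseudogenes, so the sequence of *Rangap1* that recurs elsewhere in the genome is shown here. Coordinates are those of mm10 (GRCm38), with 1-based positions from GENCODE. *Rangap1* lies on chromosome 15 (81704248 to 81730798) and its transcript, of 2984 bases in 17 exons, has its coding region at transcript bases 274 to 2040. A pair of processed pseudogenes on chromosome 17 hold parts of it. *Gm7162* (12819819 to 12820842, minus strand) matched transcript bases 274 to 1313 at 88.5% identity, and *Gm16574* (12818793 to 12819537, plus strand) matched bases 882 to 1235 at 89.3% and bases 1632 to 2027 at 87.2%. These pseudogenes lie 281 bases apart on opposite strands, both inside the annotated span of *Airn*, a non-coding RNA gene on the plus strand. Thus bases 882 to 1235 of *Rangap1* occur there once in each orientation, and over the 345 bases aligned to both, the pseudogenes had the same base at 322 (93.3%). The 90-base stretch of *Rangap1* exon 8 with the fewest mismatches to both is shown in the sense of the *Rangap1* mRNA, and capitals mark bases that differ from *Rangap1*.
Rangap1, chr15:81712825-81712914, minus strand: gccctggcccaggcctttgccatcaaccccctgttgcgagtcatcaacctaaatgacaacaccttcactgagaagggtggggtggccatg
Gm7162, chr17:12820084-12820173, minus strand: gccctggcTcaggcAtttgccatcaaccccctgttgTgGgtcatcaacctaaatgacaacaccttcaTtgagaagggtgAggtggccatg
Gm16574, chr17:12818863-12818952, plus strand: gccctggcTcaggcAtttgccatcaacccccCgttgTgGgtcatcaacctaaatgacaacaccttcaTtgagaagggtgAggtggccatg
*Gm7162* differed from *Rangap1* at 6 of these 90 bases and *Gm16574* at 7. Over the whole transcript, 148 of its 2964 words of 21 bases occurred unchanged in *Gm7162* and 12 in *Gm16574*.

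**Figure D1:**
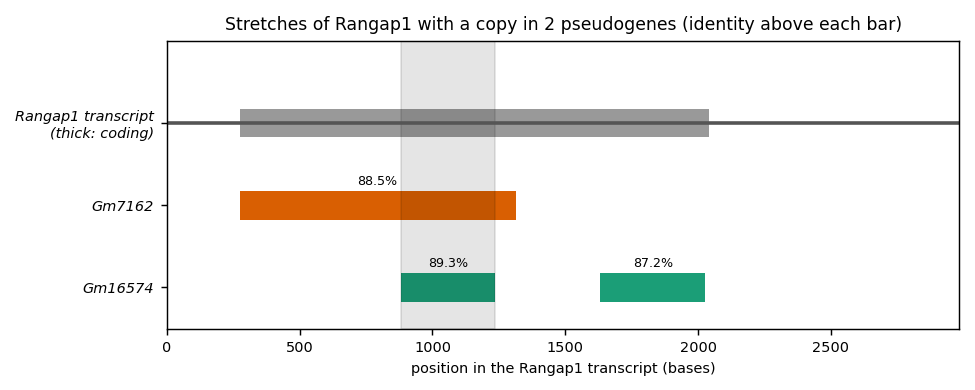
Position in the *Rangap1* transcript, in bases, of the stretches matched by the pseudogenes *Gm7162* and *Gm16574*; bars show aligned stretches with their identity in percent, the thick grey bar is the coding region, and the shaded band is the stretch (bases 882 to 1235) present in both pseudogenes. All 3 aligned stretches fall within the coding region.

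*Rangap1* was strongly up-regulated in each of the 3 mutants. Raw counts were 443, 486 and 452 in Ago2 fl/fl, 4606, 4880 and 3493 in Ago2 ADH and 4797 and 4263 in Ago2 null. They were 221, 295 and 288 in Dicer WT and 2389, 2206 and 2783 in the libraries labelled Dicer KO. The lowest mutant library was thus above the highest control library in each series. Scaled by edgeR's TMM factors, *Rangap1* stood at 8.18 ± 0.498 CPM (SD, n = 3) in Ago2 fl/fl, 84.9 ± 4.37 CPM (n = 3) in Ago2 ADH, 83.3 ± 3.57 CPM (n = 2) in Ago2 null, 6.64 ± 0.837 CPM (n = 3) in Dicer WT and 78.0 ± 0.957 CPM (n = 3) in Dicer KO oocytes.

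Tested in edgeR by quasi-likelihood, with p-values adjusted over all transcripts after Benjamini and Hochberg and a false discovery rate (FDR) of 1%, *Rangap1* rose 10.7-fold in Ago2 ADH oocytes (log2 fold change 3.42 ± 0.0764 SE, adjusted p = 1.9e-17). The rise was 10.5-fold in Ago2 null oocytes (3.39 ± 0.0840, adjusted p = 6.2e-15) and 11.8-fold in Dicer KO oocytes (3.56 ± 0.0994, adjusted p = 1.7e-15). Ranked by log2 fold change with 1 transcript per gene, it was 97th from the top of 13801 genes in Ago2 ADH, 129th of 14119 in Ago2 null and 80th of 13614 in Dicer KO oocytes. The Ago2 mutants share their control libraries, so their folds are not independent of each other. Ago2 ADH and Ago2 null oocytes differed in *Rangap1* by 0.02 on the log2 scale, with a 95% interval of -0.13 to 0.17 (adjusted p = 0.96). The rise in Ago2 ADH minus that in Dicer KO was -0.18, with an interval of -0.43 to 0.06 (adjusted p = 0.37).

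Reads that aligned to several places were set aside during counting. Their tally moved with the same groups, and was 0.557 to 0.597 for each transcript count in Ago2 fl/fl, 1.58 to 1.66 in Ago2 ADH, 1.57 to 1.66 in Ago2 null, 0.388 to 0.536 in Dicer WT and 0.939 to 1.19 in Dicer KO libraries. The part of these reads in the results was not tested.

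**Figure D2:**
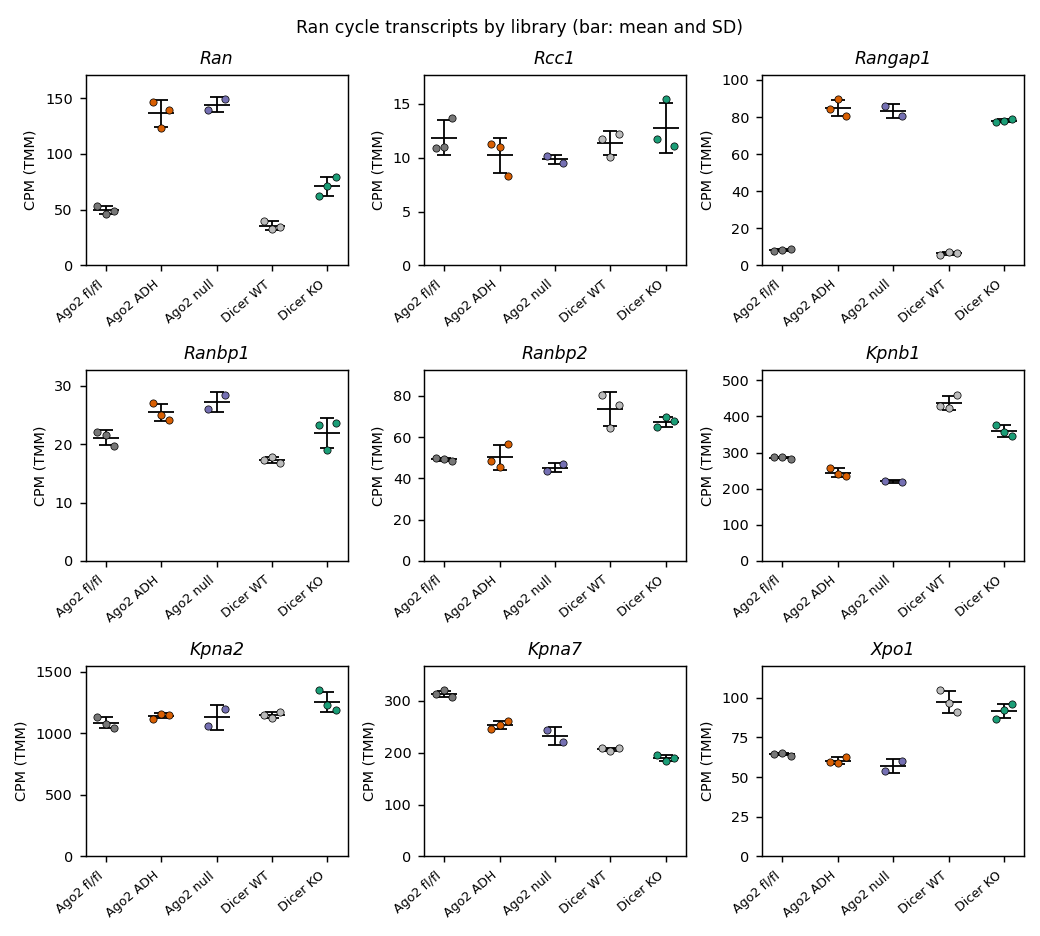
Level of each of the 9 transcripts in CPM (TMM-scaled, linear axis from 0) in every library of the 5 groups; points are libraries, the wide bar is the group mean and the error bar the SD. *Rangap1* lies at 5.71 to 8.65 CPM in the 6 control libraries and at 77.1 to 89.5 CPM in the 8 mutant libraries, and the mutant libraries of *Ran* also lie clear of their controls.

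*Ran* itself also rose in every mutant, but less. Its raw counts were 3101, 2735 and 2563 in Ago2 fl/fl, 7980, 6710 and 6030 in Ago2 ADH, and 7791 and 7852 in Ago2 null oocytes. In the Dicer series they were 1538, 1315 and 1456 in WT and 1926, 2006 and 2802 in KO. In CPM no mutant library overlapped its controls: *Ran* had 46.3 to 53.6 CPM in Ago2 fl/fl, 123.1 to 146.5 in Ago2 ADH, 139.4 to 148.8 in Ago2 null, 32.7 to 39.8 in Dicer WT and 62.1 to 79.5 in Dicer KO libraries. The rise was 2.84-fold in Ago2 ADH (log2 fold change 1.51 ± 0.0712 SE, edgeR adjusted p = 1.8e-12), 2.98-fold in Ago2 null (1.58 ± 0.0705, adjusted p = 1.3e-11) and 1.99-fold in Dicer KO oocytes (0.99 ± 0.0952, adjusted p = 8.0e-08). The Ago2 ADH effect exceeded the Dicer KO effect by 0.46 on the log2 scale, with a 95% interval of 0.20 to 0.72. This difference did not pass the FDR of 1% (adjusted p = 0.024) but did so with DESeq2 (0.49, adjusted p = 0.00498), with no filter on low counts (0.47, adjusted p = 0.00332) and without Dicer KO replicate 3 (0.55, adjusted p = 0.0047).

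*Ran* (chromosome 5, 129020156 to 129024322) has close copies too, which makes the part of its counts from shared stretches less certain. Of 4 copies with at least 300 aligned bases at 85% identity or more, *Gm13461*, a processed pseudogene on chromosome 2 inside *Lrp1b* and on the same strand as it, was the closest (97.3% over 662 bases), and *Rasl2-9*, a protein-coding gene on chromosome 7, matched over the longest stretch (92.0% over 1020 bases). The 60-base coding stretch with the fewest mismatches to both shows how alike they are, with capitals again marking differences.
Ran, chr5:129022395-129022454, plus strand: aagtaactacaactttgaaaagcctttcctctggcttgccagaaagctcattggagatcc
Gm13461, chr2:41987609-41987668, minus strand: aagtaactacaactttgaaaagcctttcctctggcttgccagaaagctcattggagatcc
Rasl2-9, chr7:5125415-5125474, minus strand: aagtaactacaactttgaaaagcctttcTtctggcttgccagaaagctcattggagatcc
Reads from such a stretch cannot be assigned to one locus with certainty. *Rasl2-9* was counted in the files on its own, at 140 to 354 counts a library. It did not pass the test in Ago2 ADH (log2 fold change 0.32, edgeR adjusted p = 0.085), Ago2 null (0.34, adjusted p = 0.13) or Dicer KO oocytes (0.01, adjusted p = 0.98).

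The other 7 members changed less, and not all in one direction. *Rcc1*, which encodes the exchange factor that charges Ran with GTP, had 11.9 ± 1.60 CPM (SD, n = 3) in Ago2 fl/fl, 10.2 ± 1.62 (n = 3) in Ago2 ADH and 9.86 ± 0.433 (n = 2) in Ago2 null oocytes. It had 11.3 ± 1.10 CPM in Dicer WT and 12.8 ± 2.32 CPM in Dicer KO (n = 3 each). Its log2 fold changes were -0.17, -0.23 and 0.17 in Ago2 ADH, Ago2 null and Dicer KO, with 95% intervals of -0.44 to 0.10, -0.51 to 0.05 and -0.13 to 0.48, and none passed the test (edgeR adjusted p = 0.29, 0.16 and 0.35). The Ago2 null libraries lay below all Ago2 fl/fl libraries, and the other mutants overlapped their controls. Here and below, separation of so few libraries is not a test, and its share over all transcripts was not counted.

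*Ranbp1*, whose product aids GTP hydrolysis by Ran and strips Ran from export complexes, rose modestly. It had 1033 to 1278 counts in Ago2 fl/fl, 1048 to 1475 in Ago2 ADH and 1458 to 1501 in Ago2 null libraries. Scaled for depth, these were 19.8 to 22.1, 24.2 to 27.1 and 26.1 to 28.4 CPM, without overlap between mutants and control. The rise of 1.24-fold in Ago2 ADH (log2 fold change 0.31 ± 0.0832 SE, edgeR adjusted p = 0.0038) and of 1.32-fold in Ago2 null oocytes (0.41 ± 0.0912, adjusted p = 0.0015) passed the test. In Ago2 ADH the call was lost without Ago2 fl/fl replicate 2 (adjusted p = 0.011), Ago2 fl/fl replicate 3 (0.027) or Ago2 ADH replicate 1 (0.032) and with all 5 groups in one fit (0.021), and in Ago2 null without Ago2 null replicate 2 (0.023). In Dicer KO oocytes *Ranbp1* was at 19.0 to 23.6 CPM against 16.8 to 17.8 CPM in WT, a log2 fold change of 0.35 that missed the FDR of 1% with edgeR (adjusted p = 0.016) and passed it with DESeq2 (0.00792), with all 5 groups in one fit (0.00413) and without Dicer KO replicate 2 (0.00631).

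*Ranbp2*, a giant nucleoporin on the cytoplasmic face of the pore to which SUMO-modified RANGAP1 is tethered, was at 48.5 to 50.0 CPM in Ago2 fl/fl, 45.4 to 56.8 in Ago2 ADH and 43.8 to 46.8 in Ago2 null libraries. It was at 64.6 to 80.5 CPM in Dicer WT and 65.0 to 69.8 CPM in Dicer KO. Its log2 fold changes of 0.07, -0.08 and -0.12 did not pass the test (edgeR adjusted p = 0.45, 0.36 and 0.25), and the widest of their 95% intervals ran from -0.29 to 0.05. Here too only the Ago2 null libraries did not overlap their controls, which with so few libraries is not a test.

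Of the transport receptors and adaptors, those called went down, by small amounts. *Kpnb1*, importin beta, fell from 283.5 to 288.0 CPM in Ago2 fl/fl to 235.1 to 258.0 in Ago2 ADH and 217.4 to 222.4 in Ago2 null libraries. In the Dicer series it went from 424.4 to 459.5 CPM in WT to 346.0 to 376.6 in KO. No mutant library overlapped its controls. The log2 fold changes were -0.18 ± 0.0484 SE in Ago2 ADH (edgeR adjusted p = 0.0044), -0.34 ± 0.0543 in Ago2 null (7.0e-05) and -0.28 ± 0.0600 in Dicer KO (0.00083). In Ago2 ADH the call was lost when 1 of 4 libraries was left out, namely Ago2 fl/fl replicate 2 (adjusted p = 0.023), Ago2 fl/fl replicate 3 (0.011), Ago2 ADH replicate 2 (0.015) or Ago2 ADH replicate 3 (0.017). An antisense gene, *Gm11583*, overlaps *Kpnb1* (99.8% over 422 bases), and unstranded counting cannot tell their reads apart.

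*Kpna7*, the importin alpha of oocytes, also fell in the Ago2 mutants. It had 307.7 to 319.7 CPM in Ago2 fl/fl, 245.5 to 260.9 in Ago2 ADH and 220.1 to 244.5 in Ago2 null libraries. The log2 fold change was -0.26 ± 0.0466 SE in Ago2 ADH (edgeR adjusted p = 0.00012) and -0.39 ± 0.0596 in Ago2 null (4.1e-05). In Dicer KO the libraries (183.8 to 195.3 CPM) also lay below WT (203.7 to 208.2 CPM), but the log2 fold change of -0.12 did not pass the test (adjusted p = 0.10). The Ago2 ADH effect minus the Dicer KO effect was -0.19, with a 95% interval of -0.34 to -0.05, and did not pass either (adjusted p = 0.097).

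*Kpna2*, the most abundant member, was at 1045 to 1135 CPM in Ago2 fl/fl, 1121 to 1160 in Ago2 ADH and 1060 to 1202 in Ago2 null libraries, and at 1125 to 1171 CPM in Dicer WT and 1188 to 1349 CPM in Dicer KO. Its log2 fold changes of 0.12, 0.10 and 0.14 did not pass the FDR of 1% (edgeR adjusted p = 0.024, 0.18 and 0.077), and only in the Dicer series did the groups not overlap. *Xpo1*, the receptor for proteins with a leucine-rich export signal, had log2 fold changes of -0.04, -0.14 and -0.08 that did not pass (edgeR adjusted p = 0.56, 0.13 and 0.37). Its levels were 63.6 to 65.0 CPM in Ago2 fl/fl, 58.6 to 62.9 in Ago2 ADH, 53.9 to 60.1 in Ago2 null, 90.8 to 104.6 in Dicer WT and 86.7 to 95.9 in Dicer KO libraries, so that both Ago2 mutants lay below their controls and the Dicer groups overlapped.

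*Kpna2* had 13 matches by the same criteria, among them *Gm10184* at 99.9% identity over 1968 bases, so its counts are uncertain. *Kpna2-ps*, shown because it has *Kpna2* sequence opposite to a transcribed gene, lies on the minus strand of chromosome 17 inside *Med20*, a gene on the plus strand, and an annotated *Med20* transcript with a retained intron holds 1891 bases of *Kpna2* sequence in antisense at 92.6% identity. Of the 2034 words of 21 bases in *Kpna2*, 498 occur in the antisense of that transcript. The pseudogene and that transcript share a locus but count separately among the 13 matches. A 60-base coding stretch without a mismatch is shown.
Kpna2, chr11:106992067-106992126, minus strand: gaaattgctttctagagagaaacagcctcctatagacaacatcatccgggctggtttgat
Kpna2-ps, chr17:47621992-47622051, minus strand: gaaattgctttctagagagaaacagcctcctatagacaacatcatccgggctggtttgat
*Med20* was counted at 60.2 to 67.7 CPM in Ago2 fl/fl, 63.7 to 70.9 in Ago2 ADH, 79.0 to 82.7 in Ago2 null, 40.7 to 48.0 in Dicer WT and 48.7 to 57.6 in Dicer KO libraries. The other members had 12 such copies (*Ranbp2*), 2 (*Ranbp1* and *Kpna7* each) or 0 (*Rcc1* and *Xpo1*). The only match of *Kpnb1* was *Gm11583*, the antisense gene at its own locus, which is not a copy.

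**Figure D3:**
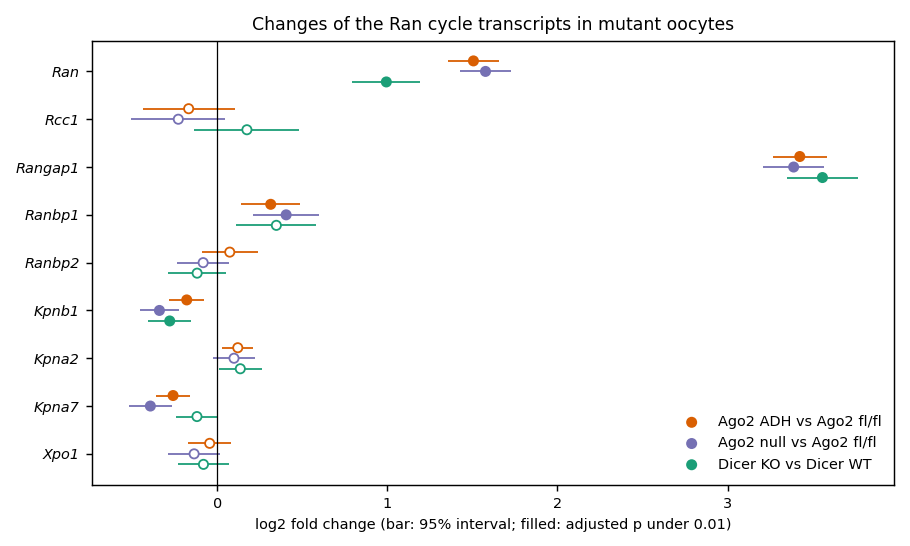
Log2 fold change of each of the 9 transcripts in the 3 mutants against their controls (edgeR); bars are 95% intervals and filled points have an adjusted p under 0.01. *Rangap1* stands near 3.4 to 3.6 and *Ran* between 0.99 and 1.58, while the other 7 lie between -0.39 and 0.41.

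In all, 5 of the 9 members were mis-regulated in Ago2 ADH oocytes (3 up, 2 down), where 40.7% of all transcripts tested were called. In Ago2 null oocytes 5 of 9 were called (3 up, 2 down) against 37.2% of all transcripts, and in Dicer KO oocytes 3 of 9 (2 up, 1 down) against 34.5%. These are 55.6%, 55.6% and 33.3% of a list of 9. *Rangap1*, the gene from which the question starts, is counted among those up in each mutant. The shares are therefore higher than those of its partners alone. The median log2 fold change of the members was 0.07, -0.08 and 0.14 in the 3 comparisons, and that of all transcripts was 0.0069, 0.0018 and -0.0044. Without Ago2 fl/fl replicate 2 or without Ago2 fl/fl replicate 3, 3 members were called in Ago2 ADH. Between Ago2 ADH and Ago2 null oocytes none of the 9 was called, against 0.119% of all transcripts (23 of 19306, with 1931 at an unadjusted p under 0.05). Of the members only *Kpnb1* had an unadjusted p under 0.05 in that comparison (edgeR adjusted p = 0.48), and DESeq2 called none. For the Ago2 ADH effect minus the Dicer KO effect none was called by edgeR, against 3.55% of all transcripts, although *Ran* and *Kpna7* had an unadjusted p under 0.05 and DESeq2 called 1, *Ran*.

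Compared per kilobase of transcript, *Rangap1* moved from the lowest level of the 9 to the middle of the order. In Ago2 fl/fl oocytes *Kpna2* led at 528.7 ± 22.1 CPM per kb (SD, n = 3), followed by *Kpna7* at 138.6 ± 2.67, *Kpnb1* at 48.5 ± 0.388, *Ran* at 20.9 ± 1.55, *Ranbp1* at 19.5 ± 1.13, *Xpo1* at 12.5 ± 0.134, *Rcc1* at 5.22 ± 0.705, *Ranbp2* at 5.13 ± 0.0789 and *Rangap1* at 2.74 ± 0.167. The ranges of *Ran* and *Ranbp1* overlapped, as did those of *Rcc1* and *Ranbp2*, and no other neighbours did. In Ago2 ADH oocytes *Rangap1* came 5th at 28.5 ± 1.46 CPM per kb, between *Kpnb1* (41.5 ± 2.05) and *Ranbp1* (23.5 ± 1.35), and *Ran* had passed *Kpnb1* to become the third (57.4 ± 5.06). In Ago2 null oocytes the order was that of Ago2 ADH oocytes, with *Rangap1* at 27.9 ± 1.20 CPM per kb (n = 2).

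Dicer WT oocytes likewise had *Rangap1* last (2.23 ± 0.280 CPM per kb, n = 3). There *Xpo1* (18.9 ± 1.34) stood above *Ranbp1* (15.98 ± 0.469) and *Ran* (15.03 ± 1.53), the last 2 of which overlapped. In Dicer KO oocytes *Rangap1* came 5th at 26.2 ± 0.321 CPM per kb and its range overlapped that of *Ran*, the fourth, at 29.8 ± 3.66. The ratio of *Rangap1* to *Ran* per kilobase was 0.114 to 0.142 in Ago2 fl/fl libraries, 0.460 to 0.579 in Ago2 ADH, 0.433 to 0.490 in Ago2 null, 0.114 to 0.179 in Dicer WT and 0.791 to 0.988 in Dicer KO libraries. The ratio of *Rangap1* to *Rcc1* transcripts was 0.481 to 0.571 in Ago2 fl/fl and 0.372 to 0.555 in Dicer WT libraries. It was 5.72 to 7.39 in Ago2 ADH, 6.45 to 6.46 in Ago2 null and 3.86 to 5.42 in Dicer KO libraries. Levels of the encoded proteins were not measured.

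By a measure that counts the size of change as well as its direction, none of the other members came close to *Rangap1*. Likeness was measured as the root mean square difference in log2 CPM over the 14 libraries, each value taken relative to the mean of that library's control group, among genes with a mean of at least 100 counts. By this measure a gene that rose less is distant even when it rose in the same libraries. *Ran* was 471st of the 10233 other genes, at a difference of 1.64, and *Ranbp1* was 2123rd at 2.36. The other 6 members, at differences of 2.53 to 2.81, ranked between 3574th (*Kpna2*) and 7404th (*Kpnb1*). The 5 nearest genes were *Pla1a*, a phospholipase that acts on phosphatidylserine (0.191), *Zfp618*, a zinc finger protein (0.197), *B4galnt2*, a glycosyltransferase (0.223), *Nrg3*, a ligand of ERBB4 (0.234), and *Pip4p2*, a phosphatidylinositol bisphosphate phosphatase (0.246). Their mean log2 differences from control were 3.21 to 3.38 in Ago2 ADH, 3.02 to 3.22 in Ago2 null and 3.13 to 3.81 in Dicer KO libraries, against 3.37, 3.34 and 3.55 for *Rangap1*. These 5 genes were picked by the same values, so their likeness is no separate result. They lie on chromosomes 16, 4, 11, 14 and 4.

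The wider pathway was read from a list of 73 other genes, all of which passed the filter on low counts in all 3 mutants. In Ago2 ADH oocytes 33 were called (21 up, 12 down), in Ago2 null 30 (18 up, 12 down) and in Dicer KO 32 (16 up, 16 down), which is 45.2%, 41.1% and 43.8% of the list against the shares of all transcripts given above. Their median log2 fold changes were 0.02, -0.03 and -0.01. The median size of change, without its sign, was 0.18, 0.22 and 0.21, against 0.34, 0.37 and 0.36 for all transcripts. The list was not matched to all transcripts in level, so these medians and shares do not compare like with like.

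By role, and to be read against the 40.7%, 37.2% and 34.5% of all transcripts called in Ago2 ADH, Ago2 null and Dicer KO, the 30 nucleoporins had the lowest share of calls in the Ago2 mutants (23.3%), with 7 called in Ago2 ADH and 7 in Ago2 null (2 up and 5 down in each) and 11 in Dicer KO (5 up, 6 down). Of 11 import receptors 8, 6 and 5 were called, with 6, 4 and 3 up. Of 7 export receptors 3, 3 and 5 were called, with 1 up each time, the same gene, *Xpot*. Of 12 genes of the SUMO pathway, which modifies RANGAP1, 7, 6 and 6 were called (6, 5 and 3 up). Of 6 spindle factors released by Ran-GTP, 3, 3 and 2 were called (2 up each time). Of 4 further importin alpha adaptors 3, 3 and 1 were called (2, 2 and 0 up), and of 3 genes for Ran recycling 2 were up in each mutant. Lists of so few genes are a description and show nothing particular to a role.

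**Figure D4:**
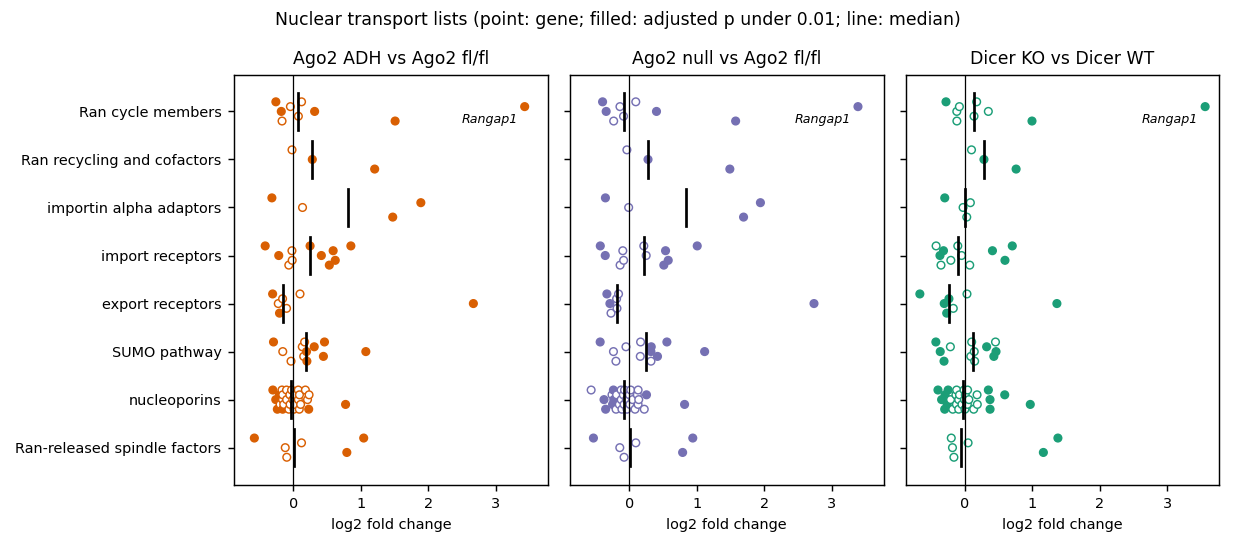
Log2 fold change (edgeR) of the 9 members and of 73 other nuclear transport genes in 7 lists, in the 3 mutants; each point is a gene, filled where the adjusted p is under 0.01, and black lines are list medians. *Rangap1* has the highest value of all genes plotted in each panel, and most nucleoporins lie near 0.

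Named by a rule on size among called genes, *Xpot*, the exportin of tRNA, showed the largest increase of the pathway in the Ago2 mutants. It had 0.415 to 1.17 CPM in Ago2 fl/fl, 3.01 to 6.48 in Ago2 ADH and 5.35 to 5.65 in Ago2 null libraries, a rise of 6.34-fold (log2 fold change 2.66 ± 0.322 SE, edgeR adjusted p = 1.3e-06) and 6.67-fold (2.74 ± 0.296, 1.0e-06). In Dicer KO it had 3.74 to 8.97 CPM against 1.76 to 2.54 in WT, a rise of 2.57-fold (1.36 ± 0.285, adjusted p = 0.00067) that missed the FDR of 1% without Dicer KO replicate 3 (0.89, adjusted p = 0.011). *Xpot* is a gene of low level here, with 24 to 353 counts a library.

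*Kpna4*, another importin alpha adaptor, had 1.02 to 1.36 CPM in Ago2 fl/fl, 2.42 to 5.34 in Ago2 ADH and 4.30 to 4.42 in Ago2 null libraries. It rose 3.70-fold (log2 fold change 1.89 ± 0.270 SE, edgeR adjusted p = 1.0e-05) and 3.85-fold (1.94 ± 0.228, 2.5e-06). Its Dicer KO libraries (2.74 to 5.85 CPM) overlapped WT (2.46 to 6.57 CPM), with a log2 fold change of -0.03 (adjusted p = 0.96). The difference of the Ago2 ADH and Dicer KO effects, 1.86 with a 95% interval of 0.90 to 2.82, missed the FDR of 1% (adjusted p = 0.014) but passed it with no filter on low counts (0.000466) and without Ago2 ADH replicate 2 (0.0036), Dicer WT replicate 3 (0.0038) or Dicer KO replicate 3 (0.0030). *Rangrf*, which encodes a Ran-binding protein known as MOG1, rose 2.30-fold in Ago2 ADH (log2 fold change 1.20 ± 0.120 SE, edgeR adjusted p = 1.1e-07) and 2.81-fold in Ago2 null oocytes (1.49 ± 0.129, 7.1e-08). Its rise of 1.69-fold in Dicer KO oocytes (0.76 ± 0.181, 0.0020) missed the FDR of 1% without Dicer WT replicate 1 (0.013).

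Among the decreases in the Ago2 mutants was *Nusap1*, a microtubule-bundling protein that importins hold until Ran-GTP frees it. It went from 346.9 to 381.1 CPM in Ago2 fl/fl to 228.9 to 244.3 in Ago2 ADH and 236.3 to 254.8 in Ago2 null libraries (log2 fold changes -0.58 ± 0.0497 and -0.53 ± 0.0617 SE, edgeR adjusted p = 1.4e-08 and 2.4e-06). In Dicer KO its libraries (440.0 to 640.0 CPM) overlapped WT (559.2 to 702.6 CPM), and the log2 fold change of -0.18 did not pass the test (adjusted p = 0.16). *Ipo8*, an import receptor, had log2 fold changes of -0.42 and -0.43 (5.2e-07 and 2.0e-05). *Kpna3*, an importin alpha, had -0.32 and -0.35 (1.1e-05 and 5.0e-05), and *Senp6*, a SUMO protease, had -0.29 and -0.43 (0.00013 and 1.9e-05).

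Beside *Xpot*, the largest increases among the listed pathway genes in Dicer KO oocytes were those of spindle genes. *Kifc1*, a minus-end motor of the kinesin-14 family, had 32.3 to 36.6 CPM against 12.5 to 13.7 in WT, a rise of 2.599-fold (log2 fold change 1.38 ± 0.102 SE, edgeR adjusted p = 2.2e-09). *Dlgap5*, a microtubule-binding protein also known as HURP, had 488.7 to 519.2 CPM against 216.7 to 241.9, a rise of 2.24-fold (1.16 ± 0.0621, 1.7e-11). Both genes were called up in the Ago2 mutants too. In Ago2 ADH *Kifc1* rose 2.06-fold (edgeR adjusted p = 3.0e-08) and *Dlgap5* 1.73-fold (5.6e-10). The largest decreases in Dicer KO oocytes were those of *Xpo4* (log2 fold change -0.67 ± 0.0854, edgeR adjusted p = 3.5e-06), an exportin, *Senp1* (-0.43 ± 0.0611, 1.2e-05), a SUMO protease, and *Nup133* (-0.40 ± 0.103, 0.0038), a scaffold nucleoporin. The *Nup133* call was lost without Dicer WT replicate 2 (adjusted p = 0.023), Dicer WT replicate 3 (0.016), Dicer KO replicate 2 (0.012) or Dicer KO replicate 3 (0.015).

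Ago2 ADH and Dicer KO oocytes, which share no library, had 12 up-regulated pathway genes in common, out of 21 in Ago2 ADH and 16 in Dicer KO. They were, as named after their values were seen, *Dlgap5*, *Ipo4*, *Ipo5*, *Ipo7*, *Kifc1*, *Nup188*, *Nup43*, *Nutf2*, *Pias1*, *Rangrf*, *Sumo2* and *Xpot*. *Nutf2* carries Ran-GDP back into the nucleus. They shared 9 down-regulated genes, out of 12 and 16, namely *Ipo8*, *Kpna3*, *Nup107*, *Nup153*, *Nup93*, *Senp6*, *Tnpo1*, *Xpo6* and *Xpo7*. No gene of the list was called up in one and down in the other. These counts are a description, beside all 18001 transcripts tested in both, where 2258 were up in both (59.7% of 3780 in Ago2 ADH and 73.8% of 3058 in Dicer KO), 2475 were down in both (65.8% of 3763 and 75.1% of 3294) and 60 went opposite ways.

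The promoters of the members, taken from RefSeq (GRCm38.p6) as the 250 bases before an annotated start and matched for 9 of 9, varied in composition. The window of *Rangap1* (81729920 to 81730169) lay inside the gene span given above. That of *Xpo1* (23255791 to 23256040) lay partly inside its own span. *Ran* had the most CpG dinucleotides (49, at 81.6% G and C) and *Kpna7* the fewest (3, at 46.0%), while *Rangap1* had 22 (59.6%), against a median of 6 over 27025 promoters. A GC box (GGGCGG on either strand) was found in 7 of 9 members, 3 times in *Ran* and once in *Rangap1*, and in 32.9% of all promoters. A CCAAT box (CCAAT on either strand) was found in 5 of 9, though in neither *Ran* nor *Rangap1*, and in 34.5% of all promoters. An E2F motif (TTTGGCGC on either strand) was found in 0 of 9 and in 0.437% of all promoters. These matches describe the windows and say nothing of binding.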

How the data were processed

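Per the labels and the study's methods, cDNA was amplified from 20 oocytes a library and sequenced; the submitters' processing notes name TopHat2 2.0.7, HTSeq 0.6.1 and DESeq 1.10.0, with mm10. The authors deposited raw counts of reads per RefSeq transcript (26495 transcripts), counted without strand, with reads of several alignments set aside in 1 of 5 tally rows that were left out of tests. Symbols came from RefSeq for 26081 transcripts and GENCODE for 113, and 301 had none. Each comparison was fitted on its own libraries with edgeR 4.0.16 in R 4.3.3 (filterByExpr with a minimum count of 10 and total of 15, TMM, quasi-likelihood test, two-sided, Benjamini-Hochberg adjustment over all transcripts, FDR of 1%); the script was tested on simulated data. Levels are CPM scaled by TMM over all 14 libraries, and log2 CPM used a prior count of 2. Copies were sought with BLAST 2.17.0 against GENCODE transcripts. Alternatives were DESeq2 1.42.0, scaling by RLE, an FDR of 5%, a stricter filter (10 counts or more in each library), none at all, a single transcript for each gene, all 5 groups in one fit, a replicate block and leaving out each library. P-values measure the spread between pools of oocytes.

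Beside the 9 members, *Ago2*, *Dicer1* and the marker lists, pathway genes were named by rule: in each mutant the 3 largest increases and 3 largest decreases among those called with a mean of at least 100 counts, and the 5 genes nearest to *Rangap1* in pattern. The members and lists were chosen with earlier results of these data known. No protein sequences were used here.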

Additional observations from a re-analysis of the deposited data

Results flagged for a closer look

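The effects of Ago2 ADH and Dicer KO were compared in one edgeR fit. None of the 9 members passed the FDR of 1%, but 5 of the 73 other pathway genes did (6.85%, against 3.55% of all transcripts). *Senp1*, a SUMO protease, fell in Dicer KO oocytes and was near its control in Ago2 ADH (difference of log2 fold changes 0.34 ± 0.0773 SE, adjusted p = 0.0065). That call was lost in 9 of 12 fits that left out a library (differences 0.31 to 0.37), with each Ago2 fl/fl or Ago2 ADH library and with Dicer WT replicate 2 or 3 or Dicer KO replicate 1 left out, and with the replicate block (adjusted p = 0.018). *Dlgap5* rose less in Ago2 ADH (difference -0.42 ± 0.0834, adjusted p = 0.0021). Without Ago2 fl/fl replicate 2, Ago2 ADH replicate 1 or Dicer WT replicate 2 its adjusted p was 0.01004, 0.01215 and 0.01032. The other 3, named after their values were seen, were *Ipo11* (0.79, adjusted p = 0.0061), *Nup188* (-0.41, 0.0049) and *Pom121* (-0.35, 0.0091). *Dicer1*, a targeted gene, also rose less in Ago2 ADH (difference -0.63 ± 0.0733, adjusted p = 4.5e-06). No group holds 4 or more libraries, so single libraries were not tested as outliers.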

How the results depend on the processing

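The folds of *Rangap1* and *Ran* in the 3 mutants kept their direction and their call under every alternative run. Of the recomputed log2 differences, 1463 kept direction and call, 28 gained and 32 lost a call, and 31 changed sign, none of them a called value. The number of members called in Ago2 ADH ranged from 3 to 5 when a library was left out, in Ago2 null from 4 to 5 and in Dicer KO from 3 to 4. For the difference of the Ago2 ADH and Dicer KO effects it was 1 (*Ran*) with DESeq2, 1 with no filter, 1 at an FDR of 5% and 0 to 1 when a library was left out. Transcripts called between Ago2 ADH and Ago2 null oocytes numbered 23, but 81 with DESeq2, 94 with no filter, 142 with the replicate block, 56 at an FDR of 5% and 6 to 21 with a library left out. For the difference of effects they numbered 692, but 1104 with DESeq2, 1638 at an FDR of 5% and 439 to 913 with a library left out. The causes were not tested.

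With a replicate block the log2 fold change of *Rangap1* was 3.43, 3.43 and 3.56 in the 3 mutants, 0.05 between Ago2 ADH and Ago2 null and -0.19 for the difference of effects. Members called under the block numbered 5, 4, 3, 0 and 0 (*Ranbp1* was lost in Ago2 null, adjusted p = 0.013) and transport genes 33, 22 and 29. Of the other genes named, the block also ended the calls of *Xpo4* in Ago2 null (-0.33, adjusted p = 0.012) and of *Senp1* for the difference of effects (0.34, 0.018). Whether the numbers pair the libraries cannot be settled with so few libraries a group. Same-numbered libraries correlated at -0.123 to 0.0408 in their deviations from group means. Not every library correlated best with its own number, although Ago2 ADH replicates 1 and 2 did among the Ago2 null libraries.

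Sign changes without a call, over the fits that left out a library, gave these ranges of log2 differences. Between Ago2 ADH and Ago2 null, *Rangap1* ran from -0.023 to 0.064, *Rcc1* from -0.036 to 0.159, *Kpna2* from -0.082 to 0.099, *Xpo1* from -0.0015 to 0.156, *Kpna4* from -0.30 to 0.207, *Xpot* from -0.29 to 0.193, *Ipo8* from -0.074 to 0.063 and *Dlgap5* from -0.089 to 0.058. In Ago2 ADH against control, *Ranbp2* ran from -0.034 to 0.147 and *Nup133* from -0.030 to 0.053, and in Dicer KO *Kpna4* ran from -0.39 to 0.448. For the difference of effects, *Xpo1* ran from -0.071 to 0.032 and *Senp6* from -0.033 to 0.081. Under other settings the sign changed for *Nup133* in Ago2 ADH (-0.029, all groups in one fit), *Kpna4* in Dicer KO (0.018, replicate block), *Kpna2* (-0.0021) and *Ipo8* (0.014) between Ago2 ADH and Ago2 null with the block, and *Xpo1* for the difference of effects (0.015 with DESeq2 and 0.015 with RLE scaling).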
